A study of Mus musculus with 12 samples.

Results

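Wdfy1, Cyfip2, Ide, Trim12a, Kiz and Crb1 are genes that earlier work found to vary between J and N stocks of the C57BL/6 mouse, and their transcripts were measured here in the pancreas of both lineages with and without chronic pancreatitis. The values belong to probe sets, groups of short DNA probes that read a transcript together, and a probe set was taken where the array's annotation names exactly 1 gene and that gene is 1 of these 6. This gave 18 of the 45101 probe sets on the array: 5 for Wdfy1, 3 for Cyfip2, 5 for Ide, 2 for Trim12a, 1 for Kiz and 2 for Crb1. The study used 12 Affymetrix arrays, with 3 arrays titled as biological replicates in each of 4 groups. The titles do not say whether an array holds 1 mouse or a pool. These were C57BL6/J mice with cerulein, C57BL6/NHsd mice with cerulein, C57BL6/J mice with saline and C57BL6/NHsd mice with saline, called J and NHsd below. J mice came from Jackson and NHsd mice, a stock of the N lineage, from Harlan. All mice were 8 weeks old, and the labels record no transgene or engineered allele in any group. The saline mice are recorded as female, and no sex is given for the cerulein mice. Cerulein acts on the cholecystokinin receptor of acinar cells, and repeated injections are used in mice to bring about pancreatitis. The dose and schedule are not given in the sources used here.

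The substrains were separated many generations ago and have since fixed different variants. In the mouse, Nnt carries a deletion in J stocks, Crb1 carries the retinal degeneration allele rd8 in N stocks, and Cyfip2 carries a missense variant in N stocks. Arrays of this kind read transcript amount and not a coding change. Wdfy1 encodes a protein of early endosomes with a FYVE domain, which binds the lipid phosphatidylinositol 3-phosphate, and WD40 repeats, and in mouse cells it helps recruit the adaptor TRIF to Toll-like receptors. Trim12a is a mouse relative of the antiviral gene Trim5. Cyfip2 belongs to the WAVE complex, through which Rac drives branched actin growth. Ide encodes insulin-degrading enzyme, a zinc metalloprotease, Kiz a centrosomal protein that in human cells is a substrate of the kinase PLK1, and Crb1 a transmembrane protein of apical cell polarity.

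The deposited values were log2 signals from 2.391, a floor shared by all arrays, to 16.37, and a probe set was tested where it exceeded log2 4 on at least 3 arrays. Of all probe sets 14245 were tested, among them 9 of the 18: 2 of Wdfy1, 2 of Cyfip2, 3 of Ide, 1 of Trim12a and 1 of Kiz. An array's mean correlation with the others of its group lay between 0.983, for J cerulein replicate 1, and 0.994, so that array stood somewhat apart and results that rest on it are given without it. The median cerulein minus saline difference over all tested probe sets was 0.48 log2. The 18 hybridization spike-in probe sets, which read RNA added from outside, averaged log2 6.90 to 7.27 on the cerulein arrays and 8.38 to 9.55 on the saline arrays. For the 27 spike-in probe sets of the poly-A kind the array means were 6.43 to 7.80 on the cerulein arrays and 8.82 to 9.87 on the saline arrays. The part of array handling in any cerulein difference was not tested, and the main cerulein differences are given both as deposited and after every array was shifted to the same median (equal medians). With equal medians 25.8% of tested probe sets were called higher after cerulein and 36.5% lower, against 58.3% and 9.92% as deposited. The acinar markers were at array means of log2 13.01 to 13.64 after cerulein and 13.47 to 13.55 after saline, so the defining markers of the labelled tissue were bright on all arrays. Precision is limited by the 3 arrays a group and the standard errors of log2 differences between 2 groups had a median of 0.21.

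Wdfy1 was lower in J than in NHsd pancreas, on every array and with either treatment. Its brightest probe set, 1437358_at, read log2 4.12, 4.69 and 4.37 on the J cerulein arrays and 6.71, 6.18 and 6.43 on the NHsd cerulein arrays. It read 4.44, 4.02 and 3.46 on the J saline arrays, against 5.64, 5.52 and 5.43 on the NHsd saline arrays. All 6 J arrays lay below all 6 NHsd arrays, an arrangement found for 0.133% of the 14245 tested probe sets. Averaged over both treatments, the J minus NHsd difference was -1.80 log2 (SE 0.17, 95% interval -2.173 to -1.432), 3.49-fold lower in J, with a limma adjusted p of 0.000367. Only 0.147% of tested probe sets were called lower in J in this comparison and 0.0913% higher, 34 probe sets in all. This probe set ranked 6 by p-value and 19 by size of difference. In bulk pancreas, fewer cells that carry the transcript and less transcript per cell cannot be told apart.

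A second Wdfy1 probe set, 1435588_at, gave the same direction. It read log2 3.52, 4.26 and 3.85 on the J cerulein arrays and 5.82, 6.12 and 6.11 on the NHsd cerulein arrays. On the J saline arrays it read 3.39, 3.13 and 2.81, and on the NHsd saline arrays 5.11, 4.32 and 5.08. Again no J array reached the lowest NHsd array, although 6 of the 7 arrays above log2 4 were NHsd, so this probe set passed the filter through the group in which it was high. The J minus NHsd mean was -1.93 log2 (SE 0.178, limma adjusted p 0.000367). Over the 12 arrays, which share platform and normalization, the 2 probe sets had a Pearson correlation of 0.961.

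The other 3 Wdfy1 probe sets never exceeded log2 4 and were not tested. Probe set 1424749_at read 2.65 to 2.81 on J cerulein, 3.111 to 3.498 on NHsd cerulein, 2.57 to 2.75 on J saline and 3.22 to 3.37 on NHsd saline arrays. Its J arrays thus also lay below its NHsd arrays, at signals that were not above background in either substrain. Probe set 1453426_a_at stayed between 2.58 and 3.42 with overlapping substrains, and 1447543_at was at the floor of 2.391 on all arrays.

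**Figure D1:**
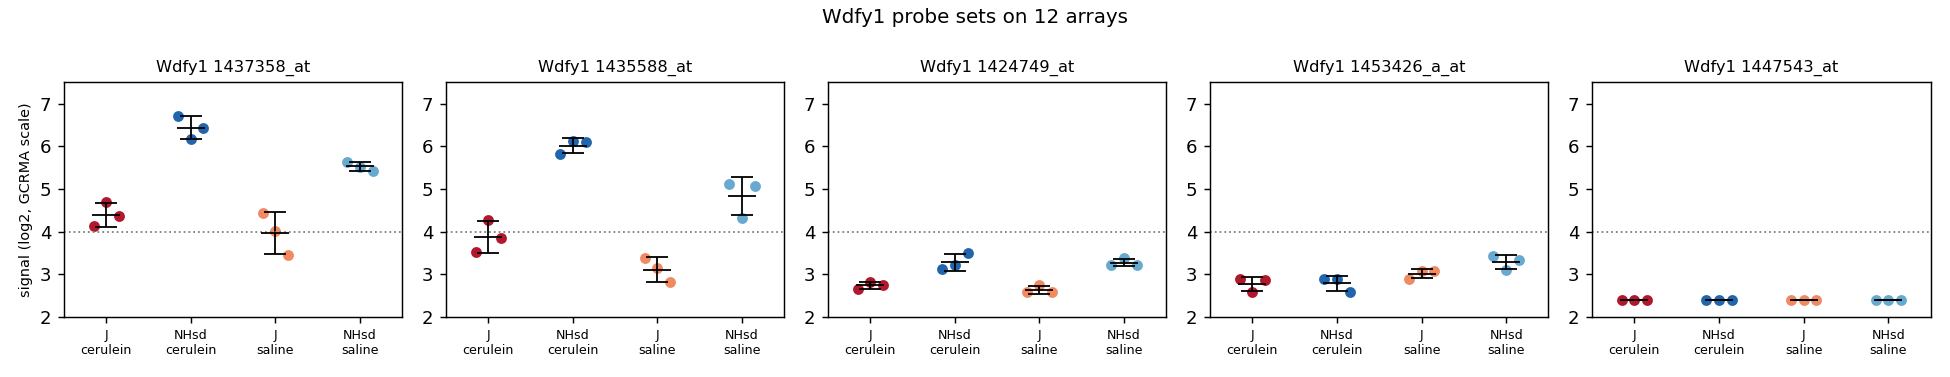
Log2 signal of each of the 5 Wdfy1 probe sets (vertical axis) by group (horizontal axis), with 1 point per array, the group mean and its SD (n = 3), and a dotted line at the log2 4 filter. The J arrays of 1437358_at lie between 3.46 and 4.69 and its NHsd arrays between 5.43 and 6.71, with no overlap.

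The Wdfy1 difference was present in each treatment taken alone. After cerulein, 1437358_at averaged 4.39 ± 0.29 in J and 6.44 ± 0.27 in NHsd (SD, n = 3 each), a difference of -2.05 log2 (SE 0.241, limma adjusted p 0.00315), and 1435588_at differed by -2.14 (adjusted p 0.00315, or 0.0511 without the filter on low values). In this comparison 0.0983% of tested probe sets were called lower in J, and the 2 Wdfy1 probe sets were the only ones of the 9 called. In saline mice 1437358_at averaged 3.97 ± 0.49 in J and 5.53 ± 0.11 in NHsd (SD, n = 3 each), a difference of -1.56 (SE 0.241, limma adjusted p 0.0332). For 1435588_at all J saline arrays lay under log2 4, and the transcript was at least 1.78-fold lower in J (adjusted p 0.0294). Of all tested probe sets 0.0632% were called lower in J saline pancreas and 0.0281% higher. The saline calls were less firm. Without each array in turn, 1437358_at kept its call in 3 of 12 fits (limma adjusted p 0.0239 to 0.164) and 1435588_at in 5 of 12 (0.026 to 0.158). With only the saline arrays in the fit, the adjusted p of 1437358_at was 0.238. With only the cerulein arrays in the fit, the adjusted p after cerulein was 0.102 for both probe sets. The cerulein effect itself was not found to differ between substrains, with a J minus NHsd difference of -0.49 log2 (SE 0.341, 95% interval -1.233 to 0.248, limma adjusted p 0.718) for 1437358_at and -0.41 (interval -1.189 to 0.361, adjusted p 0.764) for 1435588_at. No probe set of the array was called for that difference by limma, a share of 0%, while 1072 had an unadjusted p under 0.05.

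Wdfy1 was also higher after cerulein than after saline in the values as deposited, but neither tested probe set was called once all arrays had the same median. The mean of both substrains was 0.67 log2 (SE 0.17, limma adjusted p 0.00405) for 1437358_at and 0.98 (SE 0.178, adjusted p 0.000402) for 1435588_at, in a comparison that called 58.3% of tested probe sets higher and 9.92% lower. With arrays shifted to equal medians these values were 0.081 (adjusted p 0.65) and 0.39 (adjusted p 0.0532). That shift took off more than 0.48, which is the median of the deposited differences over all tested probe sets. Within NHsd mice 1437358_at differed by 0.91 (adjusted p 0.00701), or 0.31 with equal medians (adjusted p 0.232), where 47.9% of probe sets were called higher, and its NHsd cerulein arrays all lay above its NHsd saline arrays, as for 56.7% of probe sets. Within J mice it differed by 0.42 (adjusted p 0.158), the J cerulein and J saline arrays overlapped, and the sign turned to -0.15 with equal medians. From high to low, the group means of 1437358_at ran NHsd cerulein, NHsd saline, J cerulein and J saline, and only the lower 2 groups overlapped. Macrophage markers, 14 of 14 tested genes, were higher after cerulein (median 3.24 log2, or 2.85 with genes under log2 4 on all saline arrays at their bound), as were 10 of 10 fibroblast and stellate markers (median 2.17), and 14 and 9 were with equal medians. The part of these cells in the Wdfy1 values was not tested.

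Of 7 B and plasma cell markers with a probe set 5 were tested, and 2 were called lower in J over both treatments, as Wdfy1 was, while Ms4a1, Mzb1 and Igha were not called. An unadjusted limma p under 0.05 was found for 4 of the 5 over both treatments, with a median difference of -1.81 log2. After cerulein 4 had one (median -1.87) and in saline 2 (median -0.72), with 0 called in either. Ighm, the heavy chain of IgM, differed by -2.60 log2 (SE 0.428, limma adjusted p 0.0258), and Jchain, which joins IgM and IgA units, by -2.02 (SE 0.356, adjusted p 0.0428). The mean of the 7 genes lay at log2 4.87 to 5.10 on J cerulein, 5.96 to 6.98 on NHsd cerulein, 3.93 to 4.91 on J saline and 5.12 to 5.84 on NHsd saline arrays. The defining B cell genes Cd79a and Cd79b were under log2 4 on all arrays, with highest values of 2.63 and 3.86. Without J cerulein replicate 1, limma called 0 of the 5 tested markers, with an adjusted p of 0.0695 for both Ighm (-2.42) and Jchain (-2.10), whereas both Wdfy1 probe sets still were called. The part of these cells in the Wdfy1 difference was not tested. Over both treatments limma called none of 14 macrophage, 10 fibroblast and stellate, 10 acinar, 5 duct and 1 T and NK cell markers between substrains, where 1, 2, 1, 0 and 0 of them had an unadjusted p under 0.05. None of 6 islet markers was called either, and 2 had an unadjusted p under 0.05: Gcg differed by 0.83 (adjusted p 0.0542) and Ppy by 0.97 (adjusted p 0.116). After cerulein Ppy, the gene of pancreatic polypeptide, was called higher in J by 1.63 (SE 0.287, limma adjusted p 0.0387), a call lost without J cerulein replicate 1 (1.30, adjusted p 0.0859).

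The 3 genes whose pattern over the 12 arrays was most like that of 1437358_at were Nnt, Iglv1 and Ighm, by Pearson correlation over all tested probe sets with 1 gene symbol. The correlations were 0.909, 0.897 and 0.885, over arrays that share platform, normalization and the same 4 groups. Nnt encodes the mitochondrial nicotinamide nucleotide transhydrogenase, and its probe set 1416105_at averaged log2 6.66 in J cerulein, 8.21 in NHsd cerulein, 6.92 in J saline and 8.16 in NHsd saline pancreas. Its cerulein minus saline difference was -0.11. Iglv1, an immunoglobulin light chain segment, averaged 5.50 in J cerulein, 9.12 in NHsd cerulein, 3.28 in J saline and 7.47 in NHsd saline pancreas. The Ighm probe set 1427329_a_at averaged 8.08 in J cerulein, 10.76 in NHsd cerulein, 6.64 in J saline and 9.27 in NHsd saline pancreas. Immunoglobulin transcripts are alike enough to cross-hybridize, so these signals may come from several genes.

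**Figure D2:**
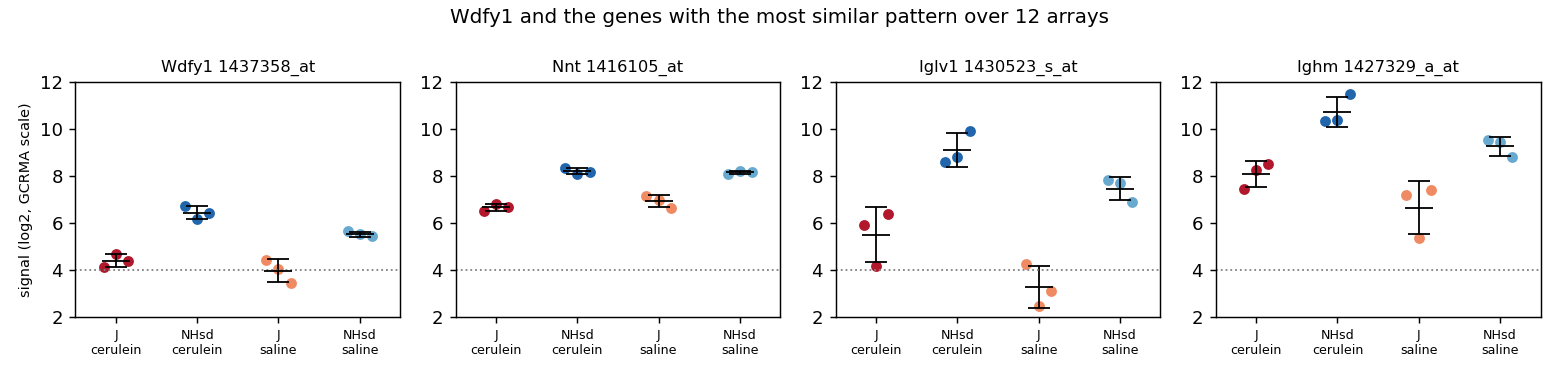
Log2 signal (vertical axis) by group (horizontal axis) for Wdfy1 and for the 3 genes with the highest Pearson correlation with it over 12 arrays, with 1 point per array, the group mean and its SD (n = 3), and a dotted line at the log2 4 filter. In each panel both J groups lie below both NHsd groups measured with the same treatment.

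Of 7 further genes listed as differing between sublines, Nnt was tested. Its highest probe set, 1456573_x_at, averaged log2 8.67 in J cerulein, 10.02 in NHsd cerulein, 8.78 in J saline and 10.17 in NHsd saline pancreas. The difference over both treatments was -1.37 (SE 0.098, limma adjusted p 9.99e-05), with all J arrays below all NHsd arrays. The highest value on any array was 2.58 for Nlrp12, 2.49 for Zp2, 3.74 for Adcy5, 2.52 for Pdzk1 and 2.39 for Acnat2, all under the filter, and no probe set was annotated to Entpd4 alone. The 34 probe sets called between substrains included 22 with 1 gene symbol, for 16 genes, of which 6 genes, Wdfy1 among them, had 2 or more called probe sets.

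None of the tested receptors, adaptors and relatives around Wdfy1 was called between substrains. Of 11 tested genes of the list of Wdfy relatives, FYVE proteins and the TLR3, TLR4 and TRIF pathway, limma called 0 between J and NHsd in either treatment or over both (1 had an unadjusted p under 0.05 over both), with differences over both treatments from -0.25 to 0.47 and a median of 0.06, against 0.055 over all tested probe sets. After cerulein 6 of the 11 were higher and 1 lower, near the 58.3% and 9.92% called over all tested probe sets (median 0.53, against 0.48), and with 3 genes under log2 4 on all saline or all cerulein arrays at their bound the median was 0.22. Wdfy3, a large autophagy scaffold of the same family, was higher by 1.28 log2 (SE 0.207, limma adjusted p 0.000165; 0.69 with equal medians), and Pikfyve, the kinase that makes phosphatidylinositol 3,5-bisphosphate, by 1.20 (SE 0.187, adjusted p 0.000128; 0.61 with equal medians). Tlr3, the receptor for double-stranded RNA, was under log2 4 on all saline arrays and at least 1.19-fold higher after cerulein (adjusted p 0.012, or 0.799 with equal medians). Ticam1, which encodes TRIF, differed by -0.31 (limma adjusted p 0.0215), or -0.90 with equal medians. Its signals lay near the filter and overlapped, at 4.02 to 4.06 on cerulein and 3.99 to 4.5 on saline arrays. It was called in neither substrain alone (adjusted p 0.0532 in J and 0.19 in NHsd). With equal medians, 2 of the 11 were called higher and 5 lower.

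Trim12a was the member nearest to the detection limit among those tested. Probe set 1437432_a_at read log2 4.73, 4.97 and 3.83 on J cerulein, 3.469, 3.499 and 4.044 on NHsd cerulein, 3.46, 3.22 and 2.67 on J saline and 2.67, 2.59 and 3.45 on NHsd saline arrays. It exceeded log2 4 on 3 arrays, all with cerulein, so it entered the test through the treatment in which it was high. Every cerulein array lay above every saline array, as for 38.2% of tested probe sets, but the values under log2 4 have no reliable order. All saline arrays lay under log2 4, so only a bound can be given: over both substrains Trim12a was at least 1.07-fold higher after cerulein (limma adjusted p 0.00137). In J mice Trim12a was at least 1.43-fold higher after cerulein (adjusted p 0.00395), where 46.2% of probe sets were called higher, and in NHsd mice, where the cerulein arrays averaged under log2 4 as well, no fold is given (adjusted p 0.0661). Over both substrains it was not called with equal medians (adjusted p 0.0602) or after quantile normalization (adjusted p 0.137). Between substrains, J minus NHsd was 0.53 over both treatments (95% interval 0.019 to 1.040, adjusted p 0.584) and 0.84 after cerulein (adjusted p 0.461), with overlapping arrays in both. The second probe set, 1420648_at, stayed between 2.391 and 2.654. Trim12c is a close paralog of Trim12a, and probes for 1 may bind the transcript of the other.

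The promoter of Trim12a is shown because its transcript and those of interferon-stimulated genes were both higher after cerulein in the deposited values. The window, from RefSeq on build GRCm38.p6, covers chr7:104315466-104315745 on the minus strand, printed 5′ to 3′, with 250 bases before the gene's start and 30 from the start on. Capitals mark a match to the core of the interferon-stimulated response element, GAAA and GAAA with any 2 bases between them, read on the other strand and beginning at base 11 from the start.
Trim12a: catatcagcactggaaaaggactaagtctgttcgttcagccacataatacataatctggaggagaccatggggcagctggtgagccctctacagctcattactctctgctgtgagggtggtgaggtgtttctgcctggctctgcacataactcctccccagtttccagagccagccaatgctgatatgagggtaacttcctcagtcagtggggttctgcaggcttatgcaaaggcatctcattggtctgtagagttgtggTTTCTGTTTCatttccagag
This motif, searched on both strands, occurs in 3.28% of 32851 windows cut to the same 280 bases, and 0 of the other 4 members with a window in that table, Cyfip2, Ide, Kiz and Crb1, held it. The GC box GGGCGG occurs in 34.7% of windows and was found in Cyfip2 and Kiz, and TATAAA occurs in 13.1% and was found in none of the 5. A match describes letters only.

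Of 7 tested genes of the Trim5 cluster and of antiviral TRIM genes, 6 were called higher after cerulein and 0 lower, where 58.3% of all tested probe sets were called higher. With equal medians 5 were called higher, where 25.8% of all were. Their median was 1.68 log2, or 0.94 with the 5 genes under log2 4 on all saline arrays at their bound. These 5 entered the test only through cerulein arrays, so the counts of genes called higher partly follow from the filter. Trim34a, which flanks Trim12a, read 5.06 to 6.19 on the cerulein and 2.48 to 3.58 on the saline arrays and was at least 2.88-fold higher (limma adjusted p 4.03e-07). Trim30a, a regulator of inflammatory signalling in mouse, read 5.12 to 6.59 on the cerulein and 3.29 to 3.83 on the saline arrays and was at least 3.75-fold higher (adjusted p 3.4e-07). Trim12c, also under log2 4 on all saline arrays, was at least 1.92-fold higher (adjusted p 3.11e-05). All 3 were still called with equal medians, with adjusted p of 1.48e-06 for Trim34a, 1.18e-06 for Trim30a and 0.000334 for Trim12c. None of the 7 was called between substrains by limma over both treatments, with differences from -0.16 to 0.43 and 4 at an unadjusted p under 0.05. Among 15 tested interferon-stimulated genes 14 were higher after cerulein (median 1.51, or 1.20 with 4 genes at their bound), 12 of 15 with equal medians, where 2 were lower. These 4 genes, too, entered the test only through cerulein arrays. Between the cerulein groups 2 of these were higher in J: Usp18, which removes the ubiquitin-like ISG15 from proteins, with 4.96 to 6.24 in J and 2.95 to 4.02 in NHsd (difference 2.10, SE 0.308, adjusted p 0.0146), and the RNA-binding protein gene Ifit1, whose 3.12 at most in NHsd put it at least 1.76-fold higher in J (p 0.00104 after adjustment). In that comparison 0.154% of tested probe sets were called higher in J. Ifit1 exceeded log2 4 only on J cerulein arrays (4.44 to 5.2), so it passed the filter through the group in which it was high. Usp18 exceeded log2 4 on its J cerulein arrays, while its highest NHsd value was 4.02 and its highest saline value 2.96. The count of 2 thus partly follows from the filter. Between the cerulein groups 11 of the 15 had an unadjusted limma p under 0.05 (median 1.05 log2), where 1371 of all 14245 tested probe sets had one. Between the saline groups 0 had one (median 0.0). For the difference of the cerulein effect 11 had one (median 1.01), and 0 were called. The genes most like Trim12a over the 12 arrays were Lrp11, Grk6 and Ifit2, with correlations of 0.96, 0.951 and 0.938.

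Cyfip2 was lower after cerulein in both substrains and was not called between substrains. Its probe set 1449273_at read log2 5.57, 5.84 and 6.19 on J cerulein, 6.39, 5.92 and 5.94 on NHsd cerulein, 7.21, 6.99 and 7.01 on J saline and 6.99, 7.25 and 7.05 on NHsd saline arrays. No cerulein array reached the lowest saline array, which held for 4.75% of tested probe sets. The cerulein minus saline difference was -1.11 log2 (SE 0.131, limma adjusted p 1.44e-05), 2.15-fold lower, with -1.20 in J (adjusted p 0.000232), where 7.6% of probe sets were called lower, and -1.01 in NHsd (adjusted p 0.000772), where 6.42% were. With equal medians it was -1.69. The second probe set, 1428347_at, read 5.40, 6.0 and 6.16 on J cerulein, 6.20, 6.08 and 6.15 on NHsd cerulein, 7.004, 6.84 and 6.43 on J saline and 6.73, 6.51 and 7.02 on NHsd saline arrays, again without overlap between treatments. It differed by -0.76 (SE 0.155, adjusted p 0.000918), or -1.34 with equal medians, with -0.90 in J (adjusted p 0.00445). In NHsd it differed by -0.61 (adjusted p 0.0321), a call lost without any 1 of 5 arrays, where the adjusted p reached 0.125. Both probe sets were among the 9.92% of tested probe sets called lower after cerulein, and they correlated at 0.892 over the 12 arrays. The third, 1442167_at, never exceeded 2.411.

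Between substrains, Cyfip2 differed by -0.12 (95% interval -0.41 to 0.162, adjusted p 0.792) and -0.14 (interval -0.48 to 0.192, adjusted p 0.794) in the 2 tested probe sets, over both treatments. Of 7 tested genes of the WAVE complex list, 6 were higher after cerulein and 0 lower, where 58.3% of all tested probe sets were called higher. The list holds other subunits and also Rac1, which acts through the complex and is not a subunit. Rac1 was 1 of the 6 (0.41 log2, limma adjusted p 0.00787). The median of the 7 was 0.68, against 0.48 over all tested probe sets. With equal medians 1 was still called higher, where 25.8% of all were, and after quantile normalization 2. Abi2, an adaptor subunit, differed by 1.20 log2 (SE 0.143, limma adjusted p 1.47e-05), or 0.62 with equal medians. Nckap1l, the subunit of blood cells, had all saline arrays and the mean of the cerulein arrays under log2 4, so no fold is given (adjusted p 0.00212, or 0.239 with equal medians). Cyfip1, the paralog of Cyfip2, had no probe set of its own under the annotation used. None of the 7 was called between substrains by limma over both treatments, and 0 had an unadjusted p under 0.05.

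Of 10 tested acinar markers 7 were called lower after cerulein, where 9.92% of all tested probe sets were, and 1, the transcription factor gene Rbpjl, higher (0.90 log2, or 0.32 and not called with equal medians). With equal medians 9 were called lower, and after quantile normalization 3, and none higher in either. Cela1, an acinar elastase, differed by -0.71 (SE 0.073, limma adjusted p 4.61e-06), or -1.30 with equal medians, with 14.17 to 14.74 on the cerulein and 15.10 to 15.25 on the saline arrays. Cela1 was also among the 3 genes most like Cyfip2 over the 12 arrays, with a correlation of 0.981, after Aldh7a1, an aldehyde dehydrogenase, with 0.984, and Slc38a5, an amino acid transporter, with 0.982. The part of a change in cell types in the Cyfip2 values was not tested.

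No tested Ide probe set was called between substrains. Probe set 1423120_at read log2 7.42, 8.80 and 8.22 on J cerulein, 8.31, 8.10 and 8.26 on NHsd cerulein, 7.87, 8.40 and 8.26 on J saline and 7.96, 7.82 and 7.67 on NHsd saline arrays. J cerulein replicate 1 was the lowest and replicate 2 the highest of all 12 arrays. Over both treatments J minus NHsd was 0.14 (SE 0.194, 95% interval -0.279 to 0.566, limma adjusted p 0.843). Probe set 1435140_at read 7.16, 8.37 and 7.67 on J cerulein, 7.82, 7.49 and 7.67 on NHsd cerulein, 7.39, 8.14 and 7.82 on J saline and 7.11, 7.28 and 7.26 on NHsd saline arrays. Its J saline arrays all lay above its NHsd saline arrays, as did 9.38% of tested probe sets, with a difference of 0.57 (95% interval -0.015 to 1.147, adjusted p 0.738). Over both treatments it differed by 0.32 (interval -0.092 to 0.730, adjusted p 0.632). The dimmer 1441860_x_at read 4.43, 5.04 and 4.75 on J cerulein, 4.45, 4.62 and 4.64 on NHsd cerulein, 3.84, 4.46 and 4.45 on J saline and 4.45, 3.95 and 4.03 on NHsd saline arrays, with a difference of 0.14 between substrains (adjusted p 0.8). The untested 1453988_a_at and 1423121_at each exceeded log2 4 on 1 array, with highest values of 4.128 and 4.157.

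The 3 tested Ide probe sets did not give 1 answer for cerulein. The difference was 0.19 (adjusted p 0.399) for 1423120_at, 0.20 (adjusted p 0.37) for 1435140_at and 0.46 (limma adjusted p 0.0184) for 1441860_x_at, and with equal medians all 3 turned negative, at -0.39, -0.39 and -0.13. Without J cerulein replicate 1 the first was 0.37 (adjusted p 0.0252). The first 2 correlated at 0.917 over the 12 arrays and the third with them at 0.692 and 0.617. In the list of M16 metallopeptidases and insulin handling, 6 of 11 tested genes were higher after cerulein and 1 lower (median 0.44), near the 58.3% and 9.92% of all tested probe sets, and with equal medians 1 was higher and 5 lower. The hormone gene Gcg (glucagon) differed by 1.01 (SE 0.151, adjusted p 8.73e-05), or 0.43 with equal medians, and Irs1, an adaptor of the insulin receptor, by 0.89 (SE 0.17, adjusted p 0.000568), or 0.31 and not called with equal medians, both with overlapping treatments. None of the 11 was called between substrains by limma over both treatments, and 2 had an unadjusted p under 0.05. The genes most like Ide in pattern were Ankrd11, Bace1 and Map2k4, with correlations of 0.92, 0.911 and 0.907.

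Kiz, read by 1 probe set, had overlapping signals in all 4 groups. Probe set 1455558_at read log2 6.74, 6.21 and 6.05 on J cerulein, 6.24, 5.91 and 6.41 on NHsd cerulein, 6.54, 6.34 and 6.12 on J saline and 6.35, 5.60 and 6.16 on NHsd saline arrays, and all groups overlapped. J minus NHsd was 0.22 (SE 0.167, 95% interval -0.142 to 0.583, limma adjusted p 0.701), and cerulein minus saline 0.07 (interval -0.289 to 0.437, adjusted p 0.709). Relative to the shift of the whole array Kiz was lower after cerulein, with a difference of -0.51 with equal medians (adjusted p 0.00986) and of -0.51 after quantile normalization (adjusted p 0.00783). Of 5 tested centrosome and spindle pole genes 3 were higher after cerulein and 0 lower, near the 58.3% of all tested probe sets called higher (median 1.05, or 0.24 with 2 genes at their bound). Cep192, a scaffold of centrosome maturation, was at least 1.17-fold higher (adjusted p 1.56e-05), and Nedd1, which anchors the gamma-tubulin ring, differed by 1.12 (SE 0.224, adjusted p 0.000815), or 0.53 with equal medians. Pcm1, a centriolar satellite protein named because only 3 were called, was under log2 4 on all saline arrays and at least 1.24-fold higher (adjusted p 0.000521). With equal medians 3 were higher, these 3 genes, and 1 lower. Cep192 and Pcm1, under log2 4 on all saline arrays, entered the test only through cerulein arrays. No gene of this list was called between substrains by limma over both treatments, and 0 had an unadjusted p under 0.05. The genes most like Kiz were Smim10l1, Heca and Svip, with correlations of 0.956, 0.922 and 0.92.

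Crb1 was not above background in any group. Its probe set 1421451_at stayed between 2.477 and 2.903 and 1441330_at between 2.393 and 2.563 on all 12 arrays, so neither was tested and no difference can be read from them. Of 10 tested partners in the Crumbs and Par polarity complexes 5 were higher after cerulein and 0 lower, where 58.3% of all tested probe sets were called higher, with a median of 0.47 against 0.48 over all. With equal medians 1 was higher and 4 lower. Mpdz, a scaffold with many PDZ domains, differed by 1.32 (SE 0.271, limma adjusted p 0.000945), or 0.73 with equal medians, and Lin7c, a small PDZ protein, by 0.79 (SE 0.174, adjusted p 0.0016), or 0.20 and not called with equal medians, both with overlapping treatments. None of the 10 was called between substrains by limma over both treatments, and 0 had an unadjusted p under 0.05.

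**Figure D3:**
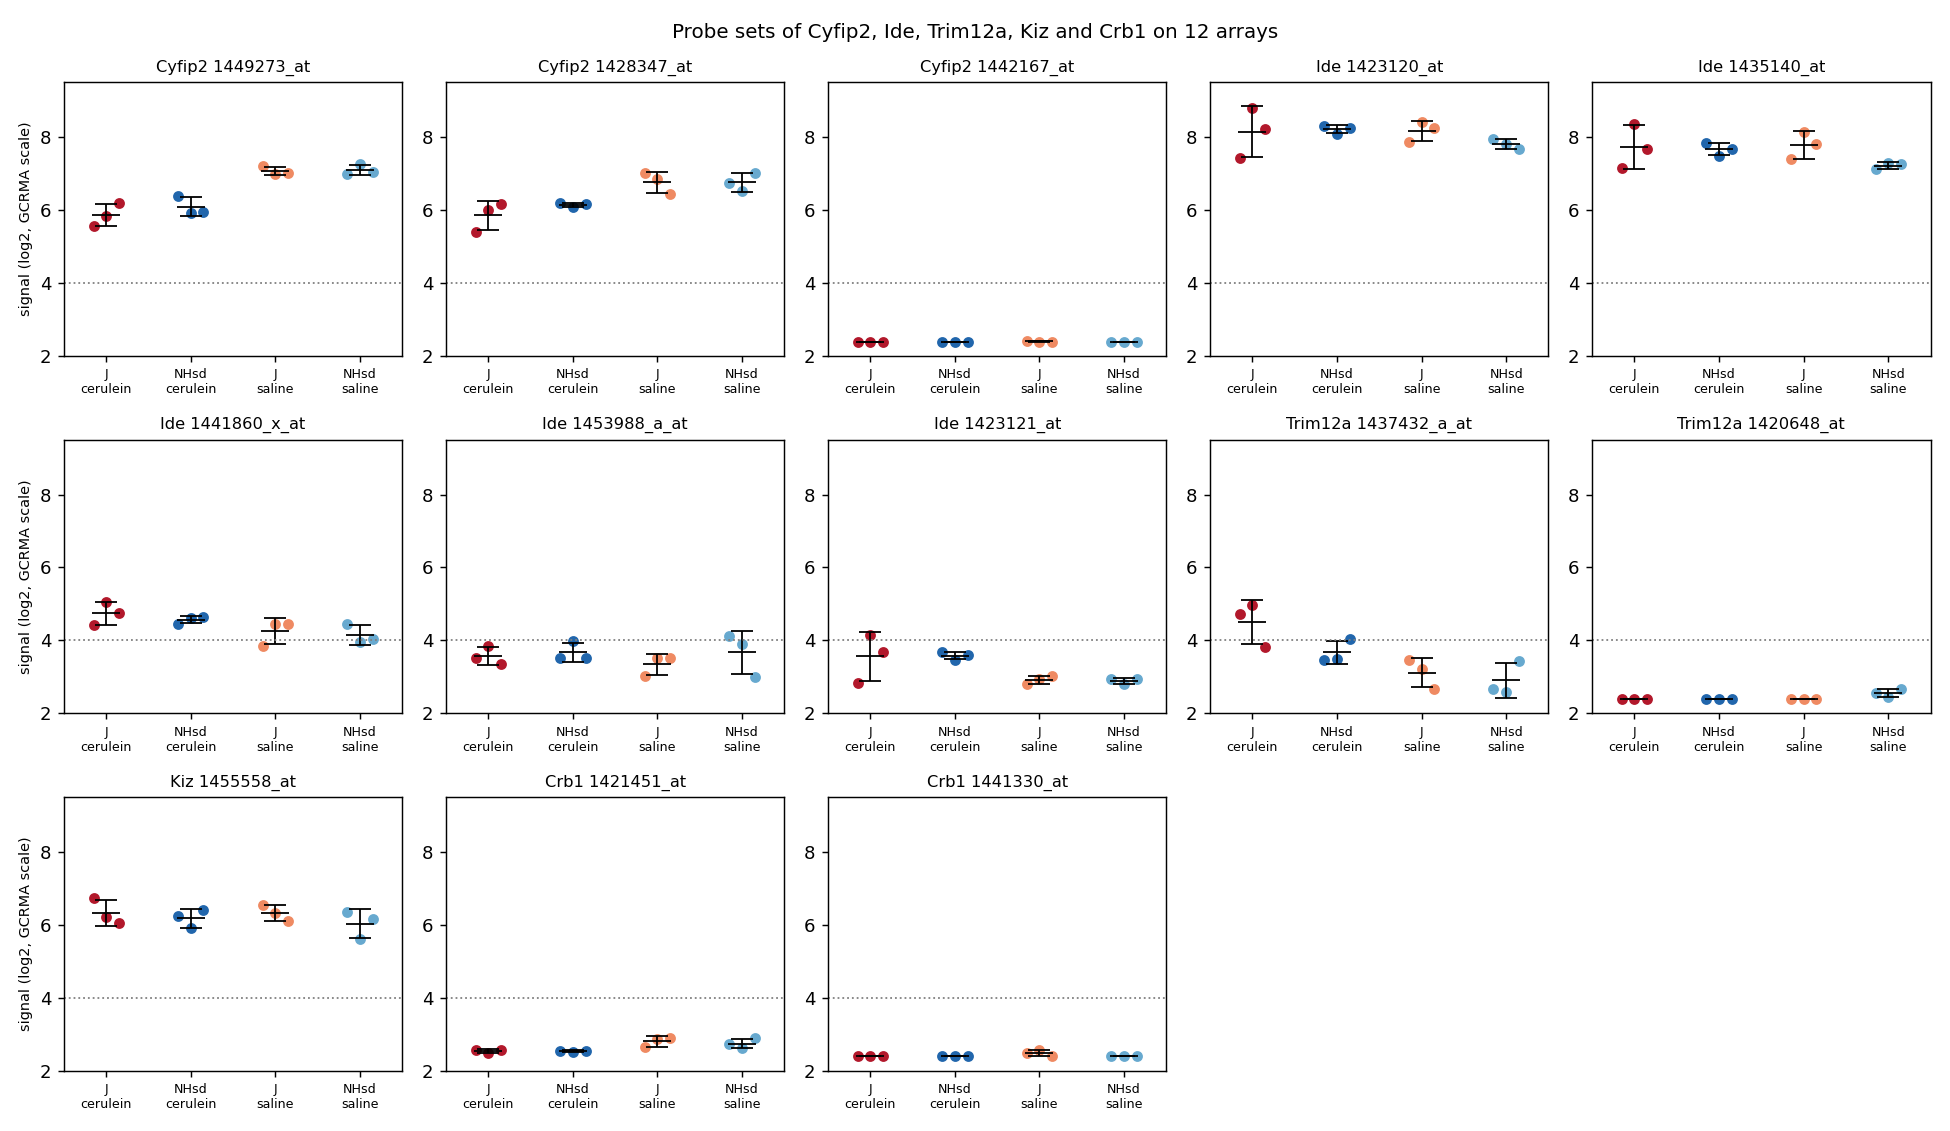
Log2 signal (vertical axis) by group (horizontal axis) for each of the 13 probe sets of Cyfip2, Ide, Trim12a, Kiz and Crb1, with 1 point per array, the group mean and its SD (n = 3), and a dotted line at the log2 4 filter. The cerulein arrays of Cyfip2 1449273_at lie between 5.57 and 6.39 and its saline arrays between 6.99 and 7.25, while the substrains overlap in each tested panel over both treatments.

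Over the 9 tested probe sets, 2 were called lower in J and 0 higher, both of Wdfy1, in the mean over treatments (0.239% of all tested probe sets called in either direction), in saline (0.0913%) and after cerulein (0.253%). The median J minus NHsd difference of the 9 was 0.14 over both treatments. After cerulein 4 of the 9 were called higher and 2 lower, where 58.3% and 9.92% of all tested probe sets were (68.2% in either direction). With equal medians 0 of the 9 were higher and 3 lower, where 25.8% and 36.5% of all were. Trim12a is 1 of the 4 and passed the filter through its cerulein arrays. Wdfy1 1435588_at is 1 of the 2 called lower in J and passed the filter through its NHsd arrays.

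**Figure D4:**
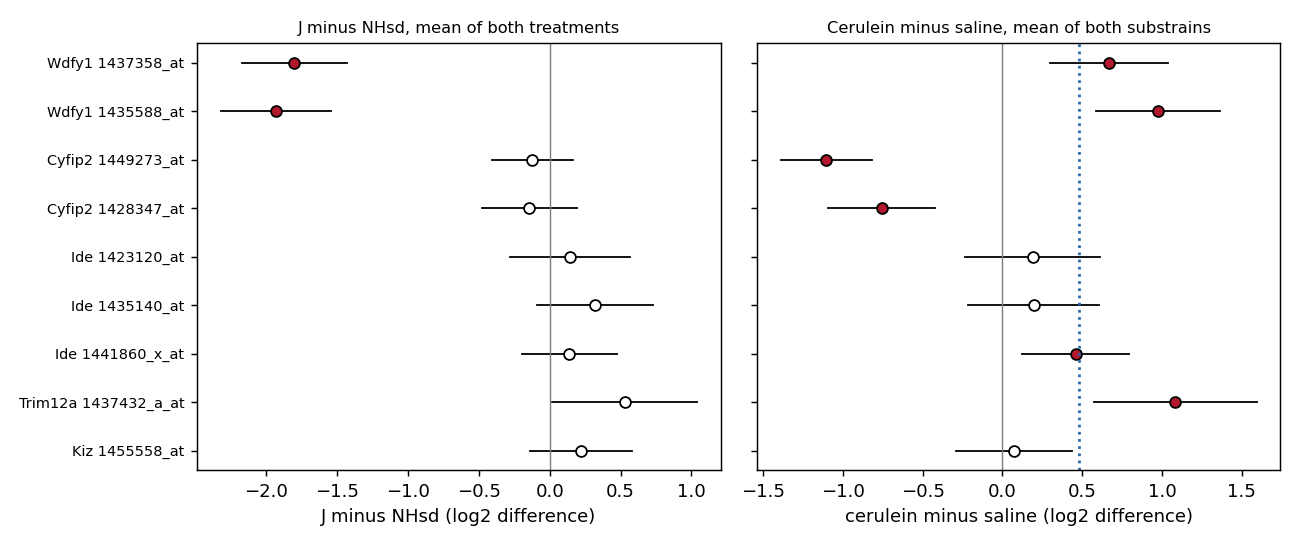
Log2 difference (horizontal axis) of the 9 tested probe sets (vertical axis) with 95% intervals, for J minus NHsd (left panel, 6 arrays against 6) and cerulein minus saline (right panel, 6 arrays against 6), with filled points for an adjusted p under 0.05 (the Trim12a point at the right is the fitted difference against saline arrays all under log2 4) and a dotted line at the median of all tested probe sets, 0.48, in the right panel. In the left panel the 2 Wdfy1 intervals, at -1.80 and -1.93, lie apart from the other 7.

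The genes that flank the 6 members in the RefSeq table of assembly GRCm38.p6, up to 2 on each side, were not called between substrains. Of these 24 genes 14 were tested and limma called 0 of them over both treatments, with differences from -0.13 to 0.57 and a lowest limma adjusted p of 0.438. Beside Wdfy1 itself, the secretogranin gene Scg2 differed by 0.26 (SE 0.14, adjusted p 0.618) and Mrpl44, for a protein of the mitochondrial ribosome, by 0.01 (SE 0.14, adjusted p 0.99). Ap1s3 did not pass the filter, and Serpine2 had no probe set of its own. After cerulein 9 of the 14 were called higher and 3 lower in the deposited values, where 58.3% and 9.92% of all tested probe sets were. With equal medians 6 were called higher and 4 lower, where 25.8% and 36.5% of all were. Hhex, a homeobox gene beside Ide, differed by 2.51 (SE 0.15, adjusted p 6.04e-08), or 1.92 with equal medians.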

How the data were processed

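RNA from pancreas was hybridized to Affymetrix arrays after Trizol and RNeasy extraction and biotin labelling of cRNA, per the labels. What was deposited are log2 signals per probe set, which the authors made with GCRMA, per the submitters' processing notes, which also name Partek; versions and further steps are not given in the sources used here. Values were used as deposited. Of the 45101 probe sets 34958 had 1 gene symbol, 932 several and 9211 none, and 64 control probe sets were left out of the tests. Probe sets over log2 4 on at least 3 of 12 arrays were fitted with limma 3.58.1 in R 4.3.3, with 1 mean per group over all arrays (8 residual and a median of 4.185 prior degrees of freedom), an intensity trend and two-sided tests, and called at a Benjamini-Hochberg adjusted p under 0.05 over all 14245. A group under log2 4 on all its arrays gives only a bound, written as at least N-fold and computed against log2 4. A probe set under log2 4 on all arrays of 1 treatment entered the test only through the other treatment. Counts that hold such calls partly follow from the filter. Genes in lists are represented by their tested probe set with the highest mean.

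The labels call the arrays of a group biological replicates. The members and lists were chosen with earlier results of these data known. Named genes are every member probe set, up to 2 genes with the largest change among those called per list and comparison, the measured subline genes, the 3 most alike genes per member, and flanking genes; Tlr3, Ticam1 and Pcm1 were added after their values were seen. Deviations from the group mean correlated over 0.1 in 3 of 18 pairs of same-numbered arrays of different groups (range -0.163 to 0.334). In 7 of 18 combinations an array was best matched by its own number. With 3 arrays a group this cannot exclude pairing, and the main fit used none. Duct, islet and T and NK cell markers, also listed, had 3, 6 and 0 genes higher and 1, 0 and 1 lower after cerulein. The fit was tested on simulated data. Alternatives were quantile normalization, equal medians, no filter, a filter at log2 6, no trend, robust moderation, 1 probe set per gene, only the groups compared, a replicate block, and leaving out each array. Tables were made with pandas 2.3.3 and numpy 2.4.6, and figures with matplotlib 3.10.9, in Python 3.11.15.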

Additional observations from a re-analysis of the deposited data

How the results depend on the processing

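The Wdfy1 difference over both treatments kept its direction and its call under every alternative in which the probe set was tested. With each array left out it was -1.92 to -1.67 log2 for 1437358_at and -2.06 to -1.84 for 1435588_at. Probe set 1435588_at was not in the fits with a filter at log2 6 or with 1 probe set per gene. The 51 member values were recomputed 1008 times in all: 931 kept direction and side of the threshold, 47 lost and 4 gained a call, and 26 changed sign. The arrays number 3 a group, and signals near log2 4 lie close to background, which limits Trim12a, Crb1 and 1435588_at most.

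The counts of called probe sets moved as follows. For J minus NHsd over both treatments, 34 became 57 without a filter and 12 with 1 probe set per gene, and leaving out each array gave 26 to 66, the highest without NHsd cerulein replicate 3. In saline, 13 became 86 without a filter, 5 with 1 probe set per gene, 6 with the replicate block and 1 with only the groups compared, and 0 to 18 without each array. After cerulein, 36 became 21 without a filter, 19 with 1 probe set per gene, 22 with the replicate block and 0 with only the groups compared, and 21 to 144 without each array, the highest without NHsd cerulein replicate 3. For the difference of effects, 0 became 25 without a filter, 1 with 1 probe set per gene and 1 with the replicate block, and 0 to 5 without each array. Cerulein minus saline gave 9718 over both substrains, 7658 in J and 7745 in NHsd; these became 5439, 4474 and 4553 with a filter at log2 6 and 5902, 4714 and 4695 with 1 probe set per gene, alternatives that test fewer probe sets. The replicate block also lost the saline Wdfy1 calls (adjusted p 0.0894 and 0.1), as did the fit without a filter (0.0781 and 0.0629), which also lost the call of 1435588_at after cerulein (0.0511). For the moved calls otherwise the cause was not tested. Counts over the gene lists and differences of their named genes under equal medians, quantile normalization and without J cerulein replicate 1 were chosen after seeing the data.

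Signs changed with the scaling, which shifts the cerulein arrays down: cerulein minus saline under quantile normalization and equal medians was -0.31 and -0.39 for Ide 1423120_at, -0.35 and -0.39 for Ide 1435140_at, -0.049 and -0.13 for Ide 1441860_x_at, -0.51 and -0.51 for Kiz 1455558_at, and in J -0.059 and -0.15 for Wdfy1 1437358_at. J minus NHsd in saline for Cyfip2 1428347_at was -0.090 and -0.074. Leaving out arrays changed the sign of uncalled values: Ide 1423120_at ran from -0.019 to 0.32 over both treatments and from -0.40 to 0.29 after cerulein, and Ide 1435140_at from -0.25 to 0.36 after cerulein. Cyfip2 1449273_at ran from -0.097 to 0.052 and Cyfip2 1428347_at from -0.12 to 0.17 in saline. Kiz 1455558_at ran from -0.057 to 0.29 after cerulein and, for cerulein minus saline, from -0.035 to 0.15.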
